A study of Saccharomyces cerevisiae with 16 samples.

Results

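The mitochondrial ribosomal proteins examined here are 41 nuclear genes of budding yeast, 33 of the large subunit (MRPL genes) and 8 of the small subunit (MRPS genes). They were taken by name, as every row of the count table whose systematic identifier is on a fixed list, and made up 41 of 5696 host rows. By their uniform ribosomal names, 19 have relatives in all ribosomes (prefix u), 8 have relatives in bacterial ribosomes (prefix b) and 14 are known only from mitochondria (prefix m). The genes lie on 12 chromosomes.

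The mitochondrial ribosome translates the few proteins that the mitochondrial genome encodes, nearly all of them core subunits of the respiratory chain and of ATP synthase. Its RNAs are mitochondrial, whereas almost all of its proteins are encoded in the nucleus, made in the cytosol and imported. Many nuclear mRNAs for these proteins are bound in yeast by Puf3, an RNA-binding protein of the PUF family that promotes their deadenylation and decay when glucose is plentiful.

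The assay (HT-5PSeq) sequences RNA ends that carry a 5′ phosphate, which are mostly decay intermediates, and here reverse transcription was primed with oligo(dT) alone. A read count therefore does not measure the total amount of an mRNA. All cells were BY4741, a haploid laboratory strain lacking URA3, LEU2, MET17 and HIS3 function, grown for 4 h at 30 °C in liquid SC-Ura to an OD600 of 0.7. Every strain carried a plasmid. In modHTH, modHNH, modNGG, modNAA, modNTN and modNNN the plasmid, of low copy number, held an mCherry reporter with the RPS3 promoter and an RPS3 terminator changed at 3 sites of 9 bp. WT held the same reporter with the unchanged RPS3 terminator. The control plasmid, POT1-ccdB, had no reporter, so it may differ from the others in more than the reporter. The letters of a group name the insert at each site. N is a random sequence and the sequence of G is not given in the labels. The other 3 inserts are shown because they are what distinguishes the groups, in capitals as the labels give them.
A: ATATTC
H: TTTCATTTC
T: TGTACAATA
The site that Puf3 is known for, TGTANATA, was in 0 of these 3 inserts on either strand. Sites of other PUF-family proteins were not searched for, and the transcripts' own 3′ UTR sequences were not analysed here.

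Of 16 libraries in 8 groups of 2, 13 were used, with 1070844 to 2939907 reads each. One library each of modNGG (477 reads), modHNH (267 reads) and modHTH (69 reads) was left out, which leaves these 3 groups with 1 library each. Separate cultures are not stated for the 2 libraries of a group, so the p-values rest on a spread that may be technical only. No used library held a read on the chromosomal rows of URA3 or MET17 and LEU2 had at most 2, whereas HIS3 had 198 to 582. The a-specific genes MFA1, MFA2 and STE2 were read in every library (417 reads or more), and the α-specific MF(ALPHA)1, MF(ALPHA)2 and STE3 had at most 7, 5 and 20 reads.

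Together the 41 genes took 0.313% of host reads in modHTH (95% exact binomial interval 0.303 to 0.323%), 0.331% in modHNH (0.321 to 0.341%) and 0.358% in modNGG (0.350 to 0.366%). The share was 0.393% ± 0.0413 in modNAA, 0.378% ± 0.0017 in modNTN, 0.382% ± 0.0322 in modNNN, 0.399% ± 0.0386 in WT and 0.357% ± 0.0133 in control (SD, n = 2 each). The lowest shares were those of the single libraries of both H-containing terminators, below every other library. The highest were the second WT library, with 0.426%, and the second modNAA library, with 0.422%, each well above its replicate (0.371% in WT, 0.363% in modNAA). Intervals cover counting error only. In a bulk culture, fewer cells with a transcript and fewer reads per cell cannot be told apart. The small subunit's 8 genes took 22.7 to 25.9% of the members' reads over the 13 libraries.

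Levels are given as counts per 1000000 host reads (CPM), scaled by trimmed mean of M-values (TMM) library factors, and between genes only per kb of transcript in the deposited annotation. By its name, that annotation gives the longest transcript with a full open reading frame. Lengths, UTRs, overlaps and levels per kb therefore refer to those forms, which may be longer than typical ones. The annotation held 40 of the 41 transcripts, all but MRPL10 (YNL284C). Positions are its transcript ends, on sacCer3. Their median level was 78.9 CPM per kb (quartiles 46.4 and 138), against 45.8 CPM per kb (quartiles 20.6 and 107) over 4818 annotated transcripts. Their transcripts were short, with a median of 947 nt (n = 40), against 1562.5 nt over 4672 transcripts that have a coding region in RefSeq. Dividing by a shorter length raises a level per kb, and levels before that division were not compared with those of all transcripts. Whether reads of this assay scale with transcript length was not tested. The 3′ UTRs had a median of 178 nt, against 173 nt, and the 5′ UTRs of 56 nt, against 84 nt, so the shorter length lies mainly in the coding region, at 649.5 nt against 1128 nt. Members with bacterial relatives had a median of 152 CPM per kb (n = 8), those with universal relatives 78.9 (n = 18) and those known only from mitochondria 51.6 (n = 14). These classes overlapped widely, with ranges of 0.498 to 300 (bacterial), 32.9 to 310 (universal) and 14.5 to 451 CPM per kb (mitochondria only). The small subunit's median was 92.6 CPM per kb (n = 8) and the large subunit's 78.9 (n = 32), and the small subunit's range lay within that of the large.

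MRPL37 (YBR268W, mL54, chromosome II, 741269 to 741807, plus strand) was the highest member, with 451 ± 72.1 CPM per kb over the 13 libraries (SD). It encodes a large-subunit protein known only from mitochondria, and had 161 CPM in modHTH, 199 in modHNH, 202 in modNGG, 236 and 282 in modNAA, 231 and 264 in modNTN, 299 and 242 in modNNN, 248 and 277 in WT and 243 and 281 in control libraries. The modHTH, modHNH and modNGG libraries were its lowest, and the other groups overlapped.

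MRPL33 (YMR286W, uL30m, chromosome XIII, 841925 to 842491, plus strand) has the second shortest annotated coding region of the set and had 310 ± 66.7 CPM per kb. By library it had 142 CPM in modHTH, 127 in modHNH, 159 in modNGG, 167 and 184 in modNAA, 142 and 161 in modNTN, 227 and 142 in modNNN, 246 and 198 in WT and 226 and 162 in control libraries. The first libraries of WT, modNNN and control were the highest, and the replicates of these 3 groups lay far apart.

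MRPS16 (YPL013C, chromosome XVI, 528656 to 529402, minus strand) encodes bS16m, whose bacterial relative binds early in the assembly of the small subunit, and had 300.0 ± 107 CPM per kb. It was the highest member of the small subunit and had 127 CPM in modHTH, 128 in modHNH, 151 in modNGG, 181 and 221 in modNAA, 254 and 191 in modNTN, 397 and 151 in modNNN, 318 and 279.6 in WT and 265 and 251 in control libraries. The single libraries of modHTH, modHNH and modNGG and the second library of modNNN formed its low end, and the first modNNN library was the highest of all 13.

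MRPL50 (YNR022C, bL9m, chromosome XIV, 669669 to 670373, minus strand) had 243 ± 38.2 CPM per kb, with 137 CPM in modHTH, 151 in modHNH, 144 in modNGG, 164 and 197 in modNAA, 158 and 151 in modNTN, 187 and 142 in modNNN, 213 and 211 in WT and 196 and 174 in control libraries. Both WT libraries were its highest, and modHTH its lowest. MRPL39 (YML009C, bL33m, chromosome XIII, 251016 to 251565, minus strand) had 224 ± 25.8 CPM per kb, with 94.9 CPM in modHTH, 113 in modHNH, 107 in modNGG, 124 and 134 in modNAA, 115 and 139 in modNTN, 145 and 118 in modNNN, 128 and 141 in WT and 120.1 and 124 in control libraries. The modHTH, modNGG and modHNH libraries were its lowest, below all others, as for MRPL37. MRPS18 (YNL306W, chromosome XIV, 58085 to 58919, plus strand) encodes uS11m, a protein of the small subunit's platform, and had 162 ± 19.3 CPM per kb, with 163 CPM in modHTH, 149.5 in modHNH, 149 in modNGG, 124 and 121 in modNAA, 118 and 133 in modNTN, 134 and 167 in modNNN, 122 and 128 in WT and 129 and 126 in control libraries. Unlike the 5 genes above, it was high in modHTH and in the second modNNN library.

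The next 30 members in order of level lay between 161 CPM per kb (MRPS9, YBR146W) and 33.0 CPM per kb (MRPL15, YLR312W-A). Of the 39 neighbouring pairs in the order of all 40, 6 differed by more than the larger of their SDs over libraries. These were MRPL37 over MRPL33, MRPL39 over MRPS18, MRPL9 over MRPS5, MRPL4 over MRPL24, MRPL24 over MRPL31 and MRPL31 over MRPL8. The spread itself was modest. The median coefficient of variation over the 13 libraries was 15.6% for the 40 members that passed the filter on low counts, against 17.1% for all 5268 genes that did. MRPL22 (YNL177C, chromosome XIV, 303364 to 304668, minus strand) was the steadiest member, at 8.63%, with 138 ± 11.9 CPM per kb. It encodes uL22m, whose relatives line the exit tunnel of the ribosome, and 99.7% of its annotated transcript lies opposite RPS3, the gene whose promoter and terminator the reporter carries. It had 170.3 CPM in modHTH, 155 in modHNH, 173 in modNGG, 185 and 174 in modNAA, 171 and 184 in modNTN, 172 and 210.3 in modNNN, 185 and 210.0 in WT and 173 and 175 in control libraries. Its highest values were in the second libraries of modNNN and WT. MRPS16 was the most variable of these members, at 35.8%, followed by MRPL44, at 25.1%.

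**Figure D1:**
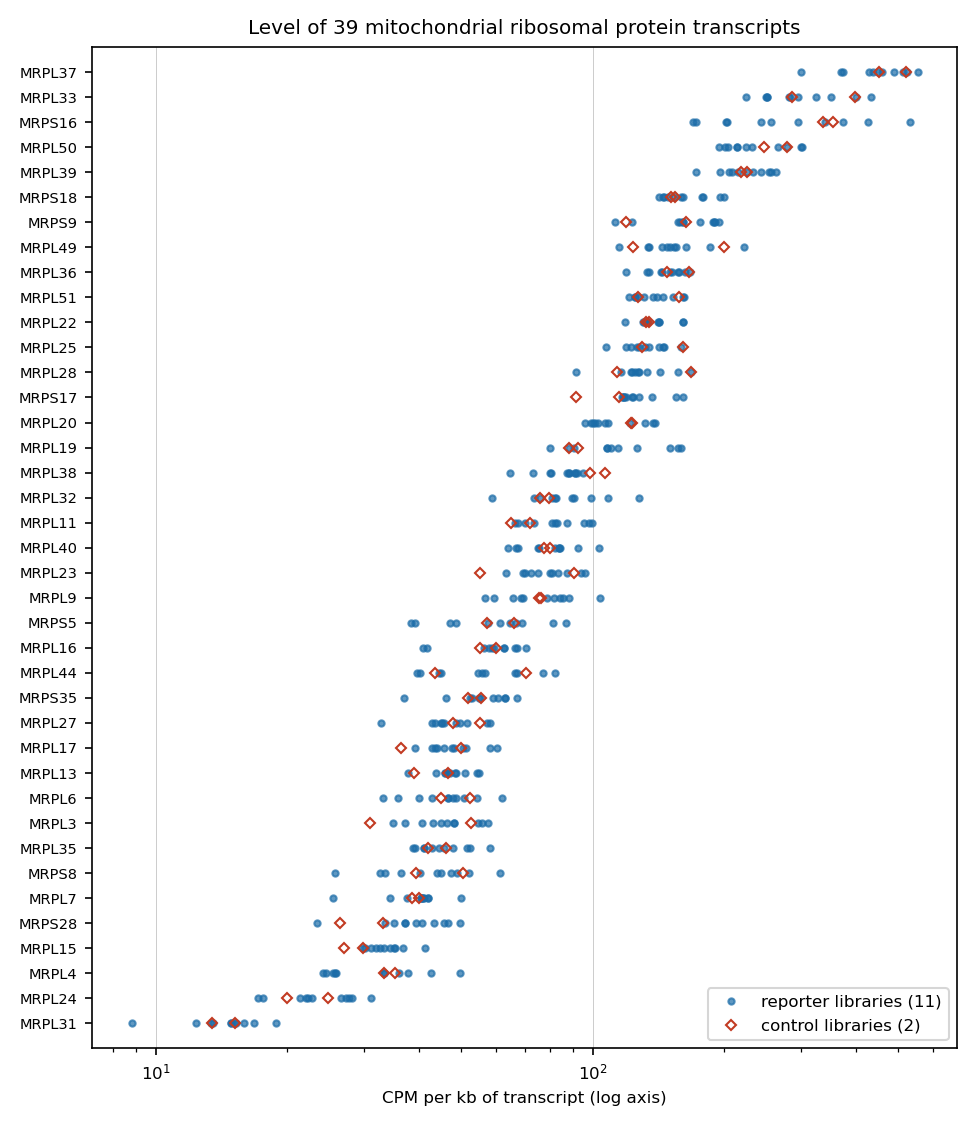
Level in CPM per kb of transcript (log axis) of the 39 members that have an annotated transcript and passed the filter on low counts, ordered by mean. Each circle is 1 of 11 reporter libraries and each diamond 1 of 2 control libraries; levels run from about 14.5 CPM per kb on average in MRPL31 to 451 in MRPL37, and for most members the control libraries fall inside the range of the reporter libraries.

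At the low end, MRPL8 (YJL063C, bL17m, chromosome X, 315680 to 316827, minus strand) had 0 to 2 reads per library and 12 in all. It had 0 reads in both control libraries, which allows up to 1.02 and 2.80 CPM (before TMM scaling) at their depths. It failed the filter on low counts and no fold change is given for it. Its transcript of 1148 nt shares 56.4% of its length, at the 3′ end, with the same-strand transcript of DLS1, which had 54 to 176 reads.

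MRPL31 (YKL138C, mL60, chromosome XI, 185215 to 186206, minus strand) had 14.5 ± 2.39 CPM per kb, with 13.3 CPM in modHTH, 14.8 in modHNH, 15.8 in modNGG, 13.4 and 12.3 in modNAA, 8.74 and 15.1 in modNTN, 16.6 and 14.8 in modNNN, 18.7 and 15.0 in WT and 15.1 and 13.3 in control libraries. It encodes a large-subunit protein known only from mitochondria, and shares 30.1% of its transcript with HSK3. MRPL24 (YMR193W, bL28m, chromosome XIII, 650028 to 651313, plus strand) had 23.8 ± 4.23 CPM per kb, with 39.9 CPM in modHTH, 35.0 in modHNH, 28.7 in modNGG, 34.2 and 22.6 in modNAA, 36.1 and 22.1 in modNTN, 28.4 and 27.5 in modNNN, 29.4 and 35.6 in WT and 31.9 and 25.7 in control libraries. It shares 53.8% of its transcript, at the 3′ end, with RPL36A, a gene of the cytosolic ribosome. MRPL4 (YLR439W, chromosome XII, 1013877 to 1015589, plus strand) had 32.9 ± 7.75 CPM per kb, with 44.3 CPM in modHTH, 42.1 in modHNH, 44.1 in modNGG, 57.1 and 41.3 in modNAA, 64.7 and 61.7 in modNTN, 85.2 and 43.7 in modNNN, 73.0 and 57.1 in WT and 60.6 and 57.2 in control libraries. It encodes uL29m, whose relatives sit at the tunnel exit, and was highest in the first libraries of modNNN and WT.

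The 3 lowest members were thus among the 5 that shared 25% or more of their transcript with another on the same strand. The other two of these, MRPL36 (YBR122C, sharing 30.3% with TFC1 at the 5′ end) and MRPL11 (YDL202W, sharing 31.0% with TRM8 at the 3′ end), ranked 9 and 19 of 40. Over all annotated transcripts the median was lower at shared lengths of 25% and more, at 1056.8 reads per kb summed over all 16 libraries with no shared length (n = 3799), 1180.1 with under 25% (n = 700), 661 with 25 to under 50% (n = 134), 295 with 50 to under 75% (n = 97) and 58.1 with 75 to under 95% (n = 67). These sums include the libraries left out elsewhere. Of the 21 transcripts shared for 95% or more, 11 had 0 reads. The sources used here do not say how reads in shared stretches were assigned, so for these 5 genes the level is uncertain. Overlap on the opposite strand occurred in 21 members and went with a smaller difference over all transcripts, at 385 reads per kb for 95 to 100% overlap (n = 113), against 1077.5 for none (n = 2596).

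**Figure D2:**
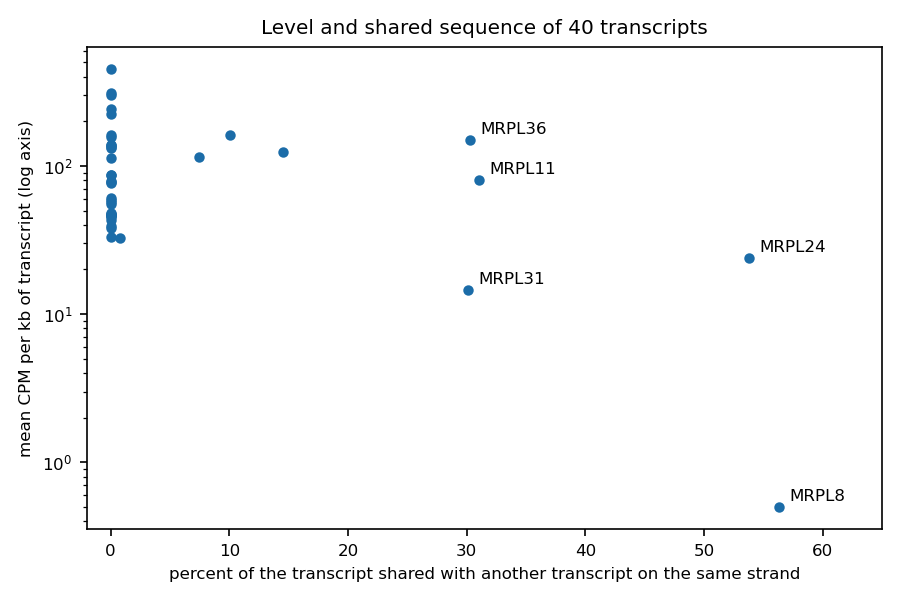
Mean level in CPM per kb (log axis) of the 40 members with an annotated transcript against the percent of the transcript that another transcript on the same strand shares. Each point is 1 member; MRPL8, MRPL24 and MRPL31, the 3 lowest, all share 30.1% or more, while MRPL36 and MRPL11, which share about as much as MRPL31, rank 9 and 19 of 40.

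The tests asked which members differed between plasmids. All 13 libraries were fitted together with edgeR's quasi-likelihood test and p-values were adjusted by Benjamini-Hochberg over 5268 genes, of which 40 were members. At an adjusted p under 0.05, 0 of 40 members were called in any of the 8 comparisons, and DESeq2 also called 0 of 40 in each. The comparisons share libraries: the 5 against modNNN use the same 2 modNNN libraries, so they are not independent of each other. Members described under a comparison were picked by their small p in it. Whether their libraries overlapped between groups is therefore no further support for a difference. The share of all genes without such overlap was not computed.

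With all 7 reporter groups set against the control without a reporter, 0 of 40 members passed, against 0.380% of all genes tested. At an unadjusted p under 0.05 there were 3 of 40 members (7.5%), against 18.2% of all genes. The median log2 fold change of the members was -0.02, against 0.02 for all genes, and 18 of 40 lay above 0 (45%, against 52.7% of all genes). The 95% interval lay within 2-fold either way for all 40 tested members, and within 1.5-fold for 29.

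The smallest p belonged to MRPL19 (YNL185C, chromosome XIV, 291909 to 292772, minus strand), which encodes uL11m of the stalk base, where translation factors dock. It had 137 CPM in modHTH, 136 in modHNH, 129.7 in modNGG, 95.2 and 93.4 in modNAA, 93.2 and 98.9 in modNTN, 76.2 and 109 in modNNN, 68.9 and 78.2 in WT and 76.4 and 80.1 in control libraries. The 11 reporter libraries had a lowest value of 68.9, a median of 95.2 and a highest of 137 CPM and overlapped both control libraries, with both WT libraries near the control. Its log2 fold change was 0.44 (SE 0.15, edgeR adjusted p = 0.142). MRPS17 (YMR188C, chromosome XIII, 636162 to 637116, minus strand) encodes uS17m, whose bacterial relative binds ribosomal RNA directly, and had 130.4 CPM in modHTH, 153 in modHNH, 148 in modNGG, 118 and 113 in modNAA, 112 and 114 in modNTN, 113 and 118 in modNNN, 111 and 122 in WT and 87.5 and 109.6 in control libraries. All 11 reporter libraries lay above both control libraries, though the lowest reporter library, at 111 CPM, was close to the higher control, at 109.6 CPM. The log2 fold change was 0.38 (SE 0.13, edgeR adjusted p = 0.150). MRPL38 (YKL170W, uL14m, chromosome XI, 130521 to 131234, plus strand) had 46.1 CPM in modHTH, 52.2 in modHNH, 65.9 in modNGG, 57.1 and 67.8 in modNAA, 62.9 and 65.2 in modNTN, 62.3 and 63.2 in modNNN, 57.3 and 65.1 in WT and 70.3 and 76.3 in control libraries. Every reporter library lay below both control libraries, at a log2 fold change of -0.31 (SE 0.14, edgeR adjusted p = 0.251).

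In WT against control, which differ in their plasmid, 0 of 40 members passed, against 0.0380% of all genes. At an unadjusted p under 0.05 there was 1 of 40 (2.5%), against 8.94% of all genes. The members' median was 0.14, against 0.02 for all genes, with 28 of 40 above 0 (70%, against 53.7% of all genes). In the second WT library, 33 of 40 members lay above their own mean over the 13 libraries, by a median of 0.18, against 23 of 40 and 0.03 in the first. Of all genes, 52.7% lay above their own mean in the second WT library and 51.2% in the first. Without the second WT library the members' median was 0.06.

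MRPL32 (YCR003W, chromosome III, 118598 to 119351, plus strand) encodes bL32m, which in yeast is cleaved by the m-AAA protease before it joins the ribosome. It had 44.3 CPM in modHTH, 67.8 in modHNH, 60.9 in modNGG, 62.2 and 81.6 in modNAA, 61.8 and 55.3 in modNTN, 74.8 and 57.1 in modNNN, 68.4 and 96.2 in WT and 59.9 and 57.2 in control libraries. Both WT libraries lay above both control libraries, the second by more, at a log2 fold change of 0.48 (SE 0.21, edgeR adjusted p = 0.506). MRPL10 (YNL284C, uL15m) had 65.6 CPM in modHTH, 69.3 in modHNH, 82.2 in modNGG, 81.2 and 91.9 in modNAA, 83.3 and 73.3 in modNTN, 112 and 78.6 in modNNN, 106 and 98.2 in WT and 79.96 and 81.0 in control libraries. WT lay above control in both libraries, at a log2 fold change of 0.34. MRPS28 (YDR337W, uS15m, chromosome IV, 1146252 to 1147408, plus strand) had 57.6 CPM in modHTH, 53.0 in modHNH, 47.0 in modNGG, 43.1 and 38.8 in modNAA, 43.1 and 50.04 in modNTN, 27.0 and 45.7 in modNNN, 40.5 and 54.1 in WT and 38.4 and 30.5 in control libraries. Both WT libraries were above both controls, and the first modNNN library was the lowest of all, at a log2 fold change of 0.42 for WT against control.

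In modNNN against WT, where the terminator differed by the random inserts, 0 of 40 members passed, against 0.0190% of all genes. At an unadjusted p under 0.05 there were 3 of 40 (7.5%), against 5.41%. The members' median was -0.09, against -0.01 for all genes, and 10 of 40 lay above 0 (25%, against 48.8% of all genes). Leaving out the first modNNN library gave a median of -0.13, leaving out the second gave -0.03, and leaving out the second WT library gave -0.04. MRPL3 (YMR024W, chromosome XIII, 321866 to 323242, plus strand) encodes mL44, a protein related to RNase III, and had 63.8 CPM in modHTH, 66.2 in modHNH, 61.9 in modNGG, 59.4 and 56.0 in modNAA, 66.4 and 79.1 in modNTN, 76.9 and 75.2 in modNNN, 48.1 and 51.1 in WT and 42.7 and 72.5 in control libraries. Both modNNN libraries lay above both WT libraries, but the 2 control libraries spanned nearly the same range. The log2 fold change was 0.62 (SE 0.22, edgeR adjusted p = 0.834). MRPL44 (YMR225C, mL53, chromosome XIII, 720722 to 721438, minus strand) had 31.9 CPM in modHTH, 28.8 in modHNH, 48.0 in modNGG, 39.2 and 47.7 in modNAA, 58.9 and 40.7 in modNTN, 28.4 and 32.2 in modNNN, 40.03 and 55.1 in WT and 31.2 and 50.5 in control libraries. It was low in both modNNN libraries and differed widely within WT, modNTN and control, at a log2 fold change of -0.65 (SE 0.27, edgeR adjusted p = 0.834). MRPL50, given above, had a log2 fold change of -0.37 (SE 0.17).

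In modNTN against modNNN, 1 T insert replaced a random one. Here 0 of 40 members passed, against 0% of all genes. At an unadjusted p under 0.05 there was 1 of 40 (2.5%), against 1.92%. The median was -0.03 for members and 0.00 for all genes, with 17 of 40 above 0 (42.5%, against 49.4% of all genes). MRPL44 had the smallest p, at a log2 fold change of 0.71 (SE 0.28, edgeR adjusted p = 0.999). Its modNNN libraries were the same low ones as before. MRPL7 (YDR237W, chromosome IV, 936473 to 937781, plus strand) encodes uL5m of the central protuberance and had 55.0 CPM in modHTH, 53.0 in modHNH, 55.0 in modNGG, 53.2 and 65.4 in modNAA, 53.6 and 52.9 in modNTN, 33.3 and 45.0 in modNNN, 53.7 and 49.1 in WT and 52.3 and 50.5 in control libraries. The modNNN libraries were its lowest 2, the first by far, at a log2 fold change of 0.44 for modNTN. MRPL9 (YGR220C, chromosome VII, 935690 to 936893, minus strand) encodes uL3m, near the peptidyl transferase centre, and had 68.3 CPM in modHTH, 71.6 in modHNH, 83.2 in modNGG, 98.0 and 125 in modNAA, 79.2 and 82.6 in modNTN, 103 and 94.7 in modNNN, 106 and 101 in WT and 91.8 and 90.6 in control libraries. It was lower in both modNTN libraries than in both modNNN libraries, at a log2 fold change of -0.29.

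In modNAA against modNNN, 0 of 40 members passed, against 0% of all genes. At an unadjusted p under 0.05 there was 1 of 40 (2.5%), against 6.21%. The members' median was 0.04, against -0.01, with 23 of 40 above 0 (57.5%, against 48.5% of all genes). The 2 modNAA libraries differed: the median difference of the first minus the second was -0.19 over the members, and 14 of 40 were higher in the first. Without the second modNAA library the median was -0.06, and without the first it was 0.11. MRPL7 had the smallest p, with a log2 fold change of 0.60 (SE 0.21, edgeR adjusted p = 0.761). Its values were 53.2 and 65.4 CPM in modNAA, against 33.3 and 45.0 CPM in modNNN. MRPL44 and MRPL3 followed, with log2 fold changes of 0.52 and -0.40.

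The groups that rest on 1 library, modNGG, modHNH and modHTH, had wider intervals. In modNGG against modNNN, 0 of 40 members passed, against 0% of all genes, and 2 of 40 (5%) had an unadjusted p under 0.05, against 14.4%. In modHNH against modNNN, 0 of 40 passed, against 0%, and 4 of 40 (10%) had an unadjusted p under 0.05, against 15.8%. In modHTH against modNNN, 0 of 40 passed, against 0.0569%, and 6 of 40 (15%) had an unadjusted p under 0.05, against 19.5%. None of these shares exceeded that of all genes. The 95% interval lay within 2-fold for 34 members in modNGG, 30 in modHNH and 22 in modHTH, and within 1.5-fold for 8, 6 and 3. For the remaining members the interval reached past that size.

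Against modNNN, the members had a median log2 fold change of -0.23 in modHTH, of -0.12 in modHNH and of -0.03 in modNGG, and 12, 9 and 19 of 40 lay above 0. The corresponding medians of all genes were -0.01, -0.01 and 0.00, and 49.1, 48.7 and 49.7% of all genes lay above 0. Without the first modNNN library the members' medians were -0.13, -0.13 and 0.03, and without the second they were -0.26, -0.21 and -0.05. Short transcripts in general were low in these libraries. The 727 genes with transcripts under 1000 nt had a median of -0.22 in modHTH, -0.24 in modHNH and -0.14 in modNGG. Those of 2000 nt or more had medians of 0.16, 0.14 and 0.12. With the linear trend on transcript length over all genes subtracted, the members' medians were -0.03 in modHTH, 0.07 in modHNH and 0.12 in modNGG (39 members with a length), so that only modHTH kept a median below 0.

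**Figure D3:**
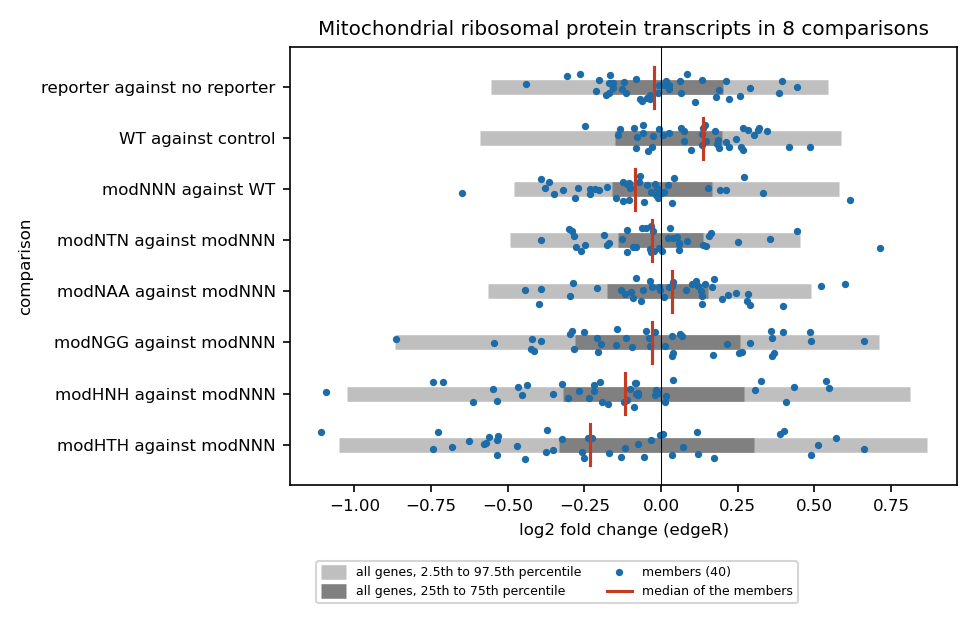
Log2 fold change of the 40 tested members (blue points, spread vertically for visibility) in each of the 8 comparisons, with their median (red line), over the central ranges of all 5268 genes (grey bars). The members lie mostly within the ranges of all genes, and their median is lowest, at -0.23, in modHTH against modNNN.

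MRPS16 and MRPL19 had an unadjusted p under 0.05 in all 3 of these comparisons, which share their modNNN libraries. MRPS16 was the lowest member in each. Its 127 CPM in modHTH, 128 in modHNH and 151 in modNGG stood against 397 and 151 CPM in modNNN. The modNNN libraries differed from each other by 1.39 on the log2 scale, the widest replicate difference of any member in that group. The log2 fold changes were -1.11 in modHTH (SE 0.39, edgeR adjusted p = 0.152), -1.09 in modHNH (SE 0.38, edgeR adjusted p = 0.221) and -0.86 in modNGG (SE 0.36, edgeR adjusted p = 0.303).

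This depended on the modNNN libraries. Leaving out either of them leaves modNNN with 1 library, as in modHTH, modHNH and modNGG. Adjusted p and calls in such fits rest on the spread of other groups, so no conclusion is drawn from them. For MRPS16, the modNNN library kept in the first of these fits was the highest of all libraries. Without the second modNNN library, MRPS16 passed at -1.65 in modHTH, -1.63 in modHNH, -1.40 in modNGG and -0.98 in modNAA, with edgeR adjusted p of 0.00162, 0.00278, 0.00463 and 0.0491. In that fit 669, 528, 357 and 7 of 5268 genes were called in all, of which 5, 4, 3 and 1 were members. The members called beside MRPS16 were MRPL4 and MRPL19 in modNGG, MRPL4, MRPL19 and MRPL33 in modHNH, and MRPL4, MRPL19, MRPL37 and MRPS28 in modHTH. Without the first modNNN library, 0 members passed in any comparison against modNNN, while MRPL19 (log2 fold change 0.45) and MRPS16 (-0.59) passed in reporter against no reporter, among 301 genes called of 5261 (5.72%).

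MRPL19 ran the other way. Its 137 CPM in modHTH, 136 in modHNH and 129.7 in modNGG were its 3 highest values, against 76.2 and 109 CPM in modNNN. The log2 fold changes were 0.57 in modHTH (SE 0.22, edgeR adjusted p = 0.184), 0.55 in modHNH (SE 0.22, edgeR adjusted p = 0.251) and 0.49 in modNGG (SE 0.21, edgeR adjusted p = 0.321). MRPL37 had the smallest p in modHTH, where 161 CPM stood against 299 and 242 CPM in modNNN. Its log2 fold change was -0.74 (SE 0.22, edgeR adjusted p = 0.120). MRPS35 (YGR165W, mS45, chromosome VII, 828989 to 830294, plus strand), a small-subunit protein known only from mitochondria, had the smallest p in modHNH and had 69.2 CPM in modHTH, 48.3 in modHNH, 60.4 in modNGG, 71.7 and 68.3 in modNAA, 72.3 and 77.4 in modNTN, 82.4 and 79.3 in modNNN, 82.1 and 87.7 in WT and 72.4 and 67.7 in control libraries. Its modHNH library was the lowest of all 13, whereas modHTH lay near the others, at a log2 fold change of -0.74 for modHNH against modNNN (SE 0.23, edgeR adjusted p = 0.200). In modNGG the third member by p was MRPL44, with a log2 fold change of 0.66.

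**Figure D4:**
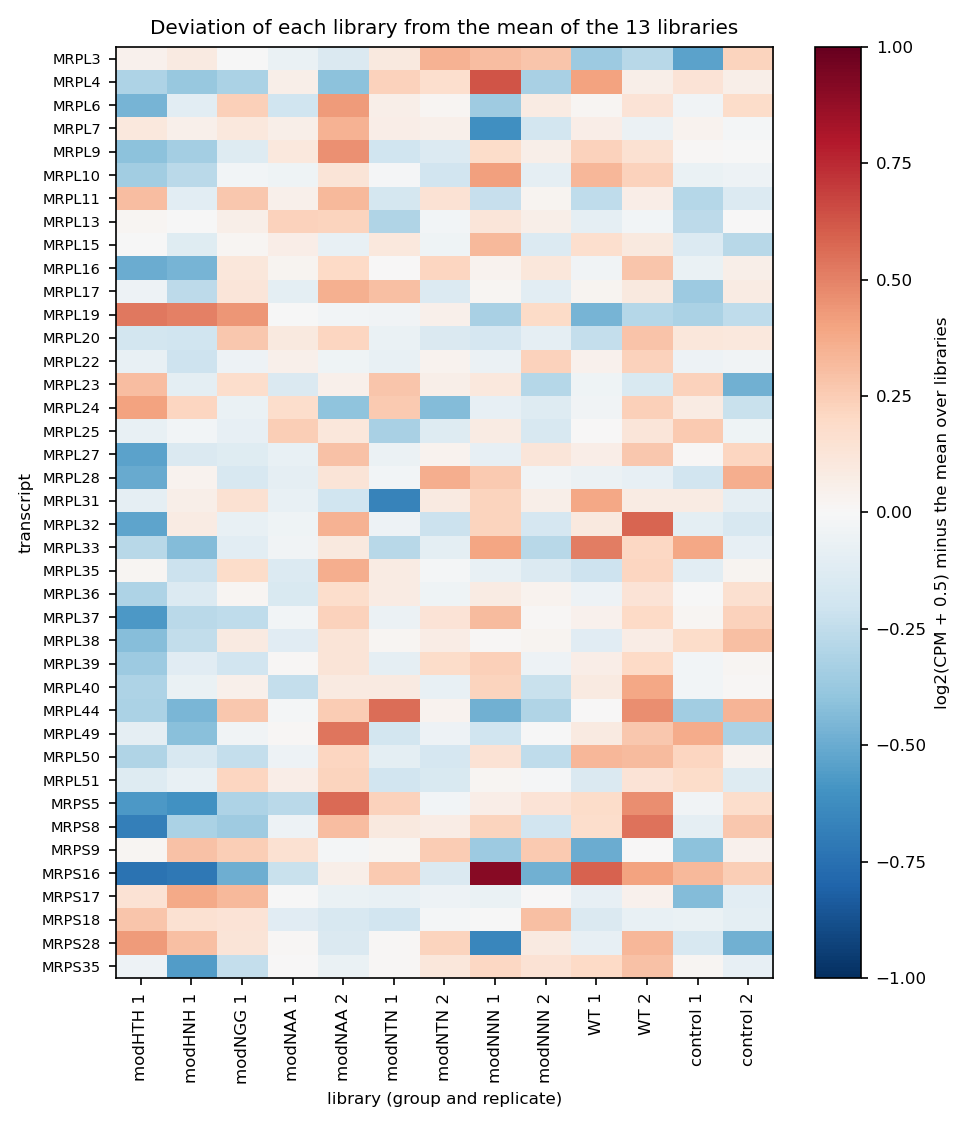
Deviation of each member in each library from its own mean over the 13 libraries, on the log2(CPM + 0.5) scale, for the 40 tested members (rows, large subunit above small) and the 13 libraries (columns). The first modNNN column differs from the second in several rows, above all MRPS16, and the second WT column is above the mean in 33 of 40 rows, while 11 of 40 are above it in modHNH and 12 of 40 in modHTH. Of all genes, 52.7% are above their own mean in the second WT library, 49.8% in modHNH and 50.1% in modHTH.

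PUF3 (YLL013C) had its highest values in the same libraries where the members' share was lowest, with 301 CPM in modHTH, 313 in modHNH, 193 in modNGG, 162 and 90.9 in modNAA, 171 and 193 in modNTN, 85.9 and 212 in modNNN, 104 and 97.2 in WT and 133 and 119 in control libraries. The modHTH and modHNH libraries were the highest, and the modNNN replicates differed more than any other pair. The log2 fold change against modNNN was 1.01 in modHTH (SE 0.35, edgeR adjusted p = 0.152) and 1.07 in modHNH (SE 0.35, edgeR adjusted p = 0.214), so neither passed. Genes with transcripts of 2000 nt or more also had medians above 0 against modNNN, at 0.16 in modHTH and 0.14 in modHNH. PUF3 has no transcript in the annotation, so its values could not be set against the trend on length. The part of PUF3 in the members' values was not tested. The other PUF-family genes did not share 1 pattern. JSN1, which encodes an RNA-binding protein of that family, also had its 2 highest values in modHTH and modHNH, at 118 and 114 CPM. It did not pass in either. PUF2 was highest in modHNH, at 17.9 CPM, but PUF4 and PUF6 were highest in modNGG, at 129.7 and 211 CPM. MPT5 was highest in the second control library, at 197 CPM.

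**Figure D5:**
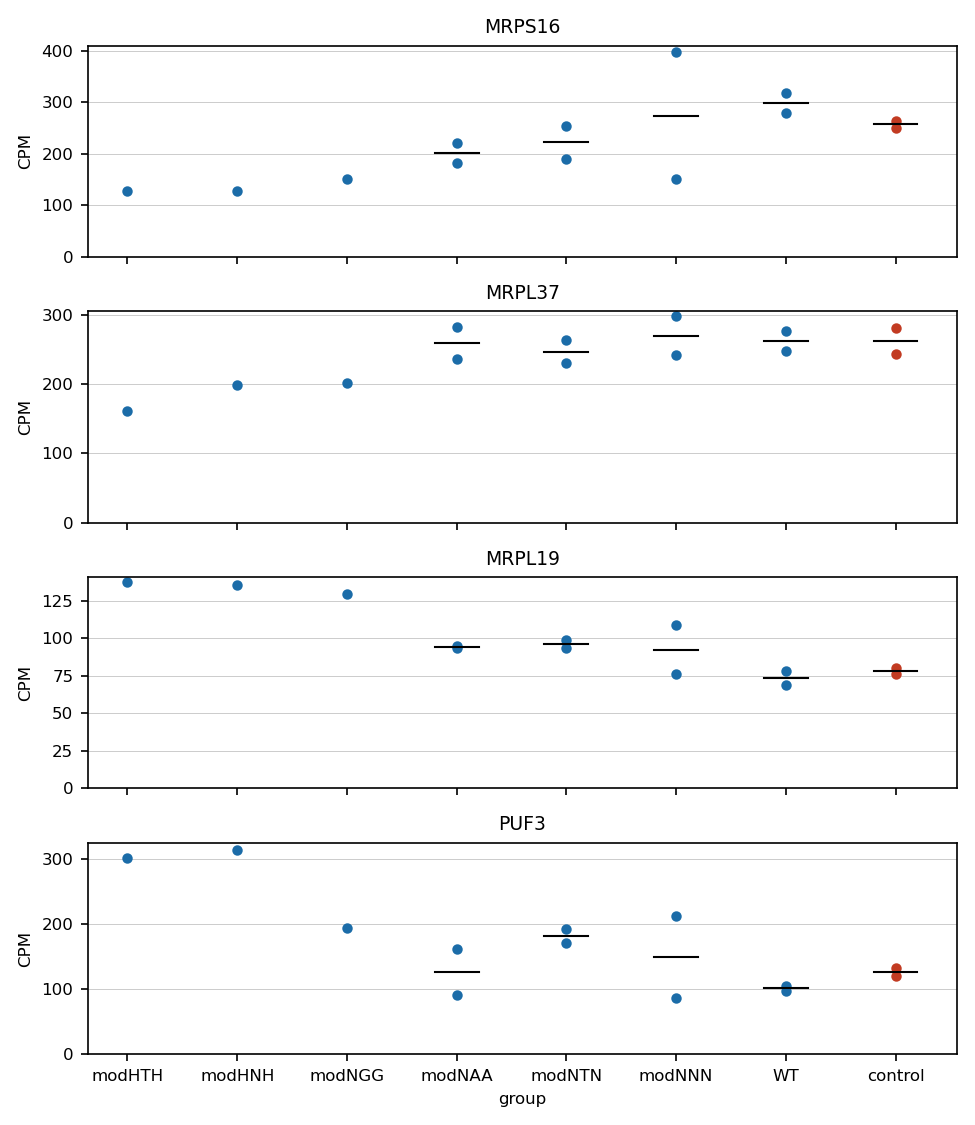
CPM of MRPS16, MRPL37, MRPL19 and PUF3 in each library (points), by group, with a line at the mean where a group has 2 libraries. MRPS16 and MRPL37 are lowest and MRPL19 and PUF3 highest in the single modHTH and modHNH libraries, and the modNNN pair is widely spread for MRPS16 (397 and 151 CPM) and PUF3 (85.9 and 212 CPM).

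The 33 other mitochondrial ribosomal protein genes were not on the list. Of these, 0 of 33 passed in any of the 8 comparisons. At an unadjusted p under 0.05 there were 4, 2, 5, 1, 3, 6, 4 and 6 of 33, in the order of the comparisons above. The shares of all genes, in the same order, were 18.2, 8.94, 5.41, 1.92, 6.21, 14.4, 15.8 and 19.5%. As shares, the counts of 33 exceeded these in modNNN against WT and in modNTN, modNAA and modNGG against modNNN. In the other comparisons they were smaller. Their medians were -0.03 in reporter against no reporter, 0.11 in WT against control, -0.09 in modNNN against WT and -0.12 in modHTH against modNNN. In modHNH against modNNN the median was -0.24, against -0.01 for all genes. Genes with transcripts under 1000 nt had a median of -0.24 there, but the lengths of these 33 transcripts were not examined. Of 8 mitochondrial translation factors and 13 mitochondrial aminoacyl-tRNA synthetases, which supply the same ribosome, and 138 cytosolic ribosomal proteins, 0 passed in each of the 8 comparisons. The respiratory chain and ATP synthase, whose core subunits this ribosome makes, had 1 of 33 nuclear genes past the threshold. This was in reporter against no reporter, where 0.380% of all genes passed. There SDH4, a membrane anchor subunit of succinate dehydrogenase, fell at a log2 fold change of -0.69 (SE 0.14, edgeR adjusted p = 0.0283). Of these 33 genes, 15 had an unadjusted p under 0.05 in that comparison, against 18.2% of all genes. Their median was -0.25, against 0.02 for all genes, and 3 of 33 lay above 0, against 52.7% of all genes. Without the second control library 0 genes in all passed in that comparison, SDH4 included, and without the first 2 did, against 20 with both.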

How the data were processed

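The deposited table gives read counts per transcript, all whole numbers, whose totals differ between libraries, so they were taken as not normalized. The submitters' processing notes name sacCer3 (R64) and the tools cutadapt, HISAT2, SAMtools, bedtools, featureCounts, FastQC and MultiQC. Not given in the sources used here are their versions, settings and strandedness, and whether reads from the same molecule were collapsed. Transcript starts and ends came from the deposited annotation, whose header names rtracklayer 1.42.1, and coding regions and symbols from RefSeq (R64), which named 5550 of 5696 host rows.

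Libraries with fewer than 1000 reads and the 2 plasmid rows (0 to 1.63% of reads in used libraries) were left out. Counts were fitted with edgeR 4.0.16 in R 4.3.3 (filterByExpr, TMM factors, glmQLFit and glmQLFTest), on 13 libraries and with no term other than group; where a group had 1 library, it is assumed to vary like the others. P-values were adjusted over 5268 genes, with a threshold of 0.05. The script was tested on simulated data. Annotation was handled in Python 3.11.15.

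The members and lists were chosen with earlier results of these data known. Members named with values in every library are the 6 highest and 4 lowest per kb and the 3 with the smallest p in each comparison; MRPL22 was added after its values were seen. Of other genes, PUF-family genes, overlapping neighbours and list members past the threshold are named. Alternatives covered normalization, filter, DESeq2 1.42.0, libraries, replicate block and length.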

Additional observations from a re-analysis of the deposited data

How the results depend on the processing

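The count of 0 members called in each comparison held under library totals, DESeq2 size factors, no filter on low counts, DESeq2, and, where it could be fitted, the use of groups with 2 libraries alone. It also held with the replicate block, under which the median log2 fold change in modHTH against modNNN was -0.21. The numbers only name libraries: of 10 correlations of the deviations of same-numbered libraries, from -0.30 to 0.32, 5 were above 0.1. The block gave 68 calls over all genes, against 20 without it, in reporter against no reporter, 6 against 2 in WT against control, 4 against 0 in modHNH and 0 against 3 in modHTH, both against modNNN. Over all genes, calls in reporter against no reporter were 61 without the filter, 59 by DESeq2 and 0 in groups with 2 libraries alone, against 20; in WT against control they were 4, 13 and 3, against 2, and in modHTH 5 without the filter or with library totals, 0 with DESeq2 size factors and 51 by DESeq2, against 3.

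With 1 library left out at a time, members were called only in fits without a modNNN library, which leave that group with 1 library. In those fits the calls over all genes rose as well, as given above with the calls of MRPS16. The median ranged from 0.057 to 0.16 in WT against control, -0.061 to 0.13 in modNAA, -0.21 to -0.12 in modHNH and -0.26 to -0.13 in modHTH. The others ranged from -0.061 to 0.0036 in reporter against no reporter, -0.13 to -0.032 in modNNN against WT, -0.070 to -0.0044 in modNTN and -0.054 to 0.026 in modNGG. Using groups with 2 libraries alone gave a median of 0.053 for reporter against no reporter. Subtracting the length trend gave 0.051 there, 0.12 in modNGG, 0.070 in modHNH and -0.032 in modHTH. The cause was not tested. Leaving out the members that share 25% or more of their transcript, an alternative chosen after seeing the data, moved no median by more than the spread between libraries (0.074). The 2 alternatives on the TGTANATA motif were not run, since no genome sequence was used here. The 12 reads of MRPL8 allow no comparison.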
